A study of Mus musculus with 14 samples.

Results

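Fatty acid uptake and mitochondrial beta-oxidation were followed through 37 genes in the ventricles of mice with and without pressure overload. The genes were taken by name from the 24972 genes listed in the deposited table, as a list of uptake, activation, carnitine shuttle and beta-oxidation genes, and they are described in the order of the pathway. All 37 were in the table, and all 37 passed the filter on low values (10 or more in 3 or more samples) and were tested. Male C57BL/6N mice underwent a sham operation or constriction of the transverse aorta (TAC), a procedure that narrows the aortic arch and loads the left ventricle with pressure, at 9 to 10 weeks of age. At 2 weeks after surgery, 30 TAC mice with an ejection fraction of 40 to 60% and 10 sham mice were selected, and each received an AAV2/9 vector through the tail vein, 1e12 viral genomes in 100 ul. Sham+GFP (3 libraries) and TAC+GFP (4 libraries) received the vector carrying GFP, and Sham+JP2NT (3 libraries) and TAC+JP2NT (4 libraries) the vector carrying JP2NT, the N-terminal fragment of junctophilin-2. Every group therefore carried a virus, and the promoter that drives the vector is not given in the sources used here. Ventricles were taken 6 weeks after the vector, which is 8 weeks after surgery. Polyadenylated RNA of the whole ventricle was sequenced, and in such bulk samples fewer cells of a type and less RNA per cell cannot be told apart.

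The working heart draws most of its energy from long-chain fatty acids. Lipoprotein lipase releases them from circulating triglyceride, CD36 and fatty acid transport proteins carry them into the cardiomyocyte, and fatty acid binding proteins hold them in the cytosol. Acyl-CoA synthetases activate them, the carnitine shuttle brings the acyl groups through the mitochondrial membranes, and a cycle of dehydrogenation, hydration, dehydrogenation and thiolysis shortens the chain to acetyl-CoA while electrons pass through the electron transfer flavoprotein to the respiratory chain. Many of these genes are known targets of the nuclear receptors PPAR alpha and the estrogen-related receptors with their coactivator PGC-1 alpha.

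Between 8650188 and 14460609 reads per library were assigned to genes, as judged by how much 1 read adds to a value. A deposited value of 1 corresponded to about 1 read, so Acsl3, the least abundant of the 37 genes with values from 38.2 to 88.7, was limited by counting error, and the abundant genes were not. The libraries of Sham+JP2NT replicates 1 and 2 were nearly as close as counting noise allows (variance 1.33 times that of counting over genes with at least 50 reads, against 2.39 to 28.4 times in the other 17 pairs within groups). They were averaged and counted as 1 sample, which leaves 13 samples and 2 in Sham+JP2NT. TAC+JP2NT replicate 4 stood apart for these genes: it was the highest of its group in 27 of 37, against 30.8% of all genes tested. TAC+GFP replicate 3 was the lowest of its group in 22 of 37, against 30.3% of all genes. TAC+GFP replicate 1 was the highest in 18 of 37 (20.4% of all genes), and TAC+JP2NT replicate 2 the lowest in 16 of 37 (18.8%). Differences between TAC+JP2NT and TAC+GFP are also given without TAC+JP2NT replicate 4. The tissue label fits the markers, since the summed value of 8 cardiomyocyte genes was 466412 to 474089 in Sham+GFP, while all 5 skeletal muscle markers fell below the filter, with Myh4 at 0 in Sham+GFP.

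Promoter sequences were matched by symbol in a RefSeq table of build GRCm38.p6, which held 30 of the 37 genes. The 250 bases before the transcription start are printed for Ucp3, the gene with the largest fall after overload. They are also printed for Acadm, whose promoter is a textbook target of nuclear receptors. Those of Cpt2 are printed as the one gene called between the vectors in overloaded hearts. That call was lost without TAC+JP2NT replicate 4, as described further on. Sequences run 5′ to 3′ on the strand of the gene, and capitals mark the hexamer AGGTCA, the core of the sites that these receptors bind, on either strand (TGACCT when it lies on the other strand).
Ucp3, chr7:100472741-100472990, plus strand: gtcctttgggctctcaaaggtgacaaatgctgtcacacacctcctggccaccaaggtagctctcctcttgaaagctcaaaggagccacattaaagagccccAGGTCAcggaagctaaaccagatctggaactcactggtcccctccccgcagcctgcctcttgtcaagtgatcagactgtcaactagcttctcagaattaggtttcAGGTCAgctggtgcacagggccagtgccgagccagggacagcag
Acadm, chr3:153944644-153944893, minus strand: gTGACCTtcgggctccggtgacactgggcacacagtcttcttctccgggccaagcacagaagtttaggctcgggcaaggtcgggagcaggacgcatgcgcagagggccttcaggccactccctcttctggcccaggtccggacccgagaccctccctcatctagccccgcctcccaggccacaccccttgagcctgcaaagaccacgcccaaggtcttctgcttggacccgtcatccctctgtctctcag
Cpt2, chr4:107923590-107923839, minus strand: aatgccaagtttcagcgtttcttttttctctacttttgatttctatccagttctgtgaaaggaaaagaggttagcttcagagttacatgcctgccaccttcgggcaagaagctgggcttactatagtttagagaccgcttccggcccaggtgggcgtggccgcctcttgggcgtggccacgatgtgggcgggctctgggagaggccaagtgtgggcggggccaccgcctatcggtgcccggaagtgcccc
The Ucp3 window held the hexamer 2 times, the Acadm window held it once at its far end, and the Cpt2 window did not hold it. Searched on both strands in the whole promoter windows (250 bases before to 50 after the start), AGGTCA was present in 8 of the 30 genes, 26.7%, against 18.1% of the 27025 genes with an entry. The 8 genes were Cd36, Acsl6, Cpt1a, Acadm, Acadvl, Echs1, Ucp3 and Acacb. The direct repeat of the hexamer with a single base between its copies, the classical PPAR element, was in none of the 30 and in 0.0481% of all genes. The longer element TCAAGGTCA, which contains the hexamer and is bound by the estrogen-related receptors, was in Acsl6 and in 0.466% of all genes. A match describes letters in a window and does not show binding.

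Hadha and Hadhb, which encode the alpha and beta subunits of the mitochondrial trifunctional protein, lie head to head on chromosome 5. Hadha runs along the minus strand (chr5:30118304-30155162) and Hadhb along the plus strand (chr5:30155248-30184593), with starts 86 bases apart in the GENCODE M21 annotation. RefSeq places the start of Hadha further inside the gene, with the 250 bases before it at chr5:30154981-30155230, so the distance depends on the annotation. The stretch between the GENCODE starts is shown in lower case because both genes share it and both fell after overload by different amounts, as given further on. It is 85 bases long, 69.4% of them G or C.
Between Hadha and Hadhb, chr5:30155163-30155247, plus strand: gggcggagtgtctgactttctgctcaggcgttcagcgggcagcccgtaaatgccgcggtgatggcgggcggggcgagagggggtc

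Levels of different genes are compared here only per length. Per kilobase of the principal transcript, Fabp3 was the most abundant of the 37 genes in Sham+GFP (65385 per kilobase). Ech1 (16862), Lpl (15005), Hadhb (13961) and Acaa2 (11122) followed. The order below Fabp3 depends on the length used: per kilobase of all exonic bases of a gene together, Acaa2 had rank 2, Ech1 3, Etfb 4 and Acadl 5, and Lpl and Hadhb had ranks 7 and 9. The lowest levels per kilobase were those of Acsl6 (25.5), Acsl4 (18.7) and Acsl3 (15.9). Within the acyl-CoA synthetases, Acsl1 accounted for 97.05 to 97.32% of the summed level of the 5 isoforms per principal transcript length in sham samples. Per length of all exonic bases its share there was 93.6 to 94.21%. Cpt1b, the muscle form of carnitine palmitoyltransferase 1, made up 93.9 to 95.7% of the summed level of Cpt1a and Cpt1b over all libraries. That range is per principal transcript length, and per length of all exonic bases it was 95.9 to 97.13%. In TAC+GFP the same 4 genes, Fabp3, Lpl, Ech1 and Hadhb, had the highest levels per kilobase of the principal transcript, and Acaa2 stood at rank 11 in place of rank 5.

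After overload, 30 of the 37 genes fell, 1 rose and 6 did not pass the test under the GFP vector (TAC+GFP against Sham+GFP). The test was limma on log2(value + 1) after joint rescaling, and calls were made where the Benjamini-Hochberg adjusted p over the 13212 genes tested was below 0.05. In the same comparison 48.1% of all genes tested were called, 24.8% lower and 23.3% higher, so that calls were frequent everywhere and their direction was even over all genes. The median log2 fold change was -0.61 over the 37 genes and -0.0052 over all genes, and the 37 genes ranged from -2.46 to 0.79. Values of the TAC+GFP and Sham+GFP libraries did not overlap in 32 of the 37 genes, against 53.1% of all genes. Under the JP2NT vector (TAC+JP2NT against Sham+JP2NT), 29 genes fell, 1 rose and 7 did not pass, with 31.9% of all genes called, 15.8% lower and 16.1% higher. There the median was also -0.61 and groups did not overlap in 33 of the 37 genes, against 49.6% of all genes. Without TAC+JP2NT replicate 4 that median was -0.71. The medians of single steps under JP2NT given below include this replicate. Both comparisons called 28 of the 37 genes lower, a description only, since calls shared by the 2 comparisons were not counted over all genes. Acsl6 and Echs1 were called lower under GFP alone and Acadl under JP2NT alone. No difference between the vectors in the response to overload passed the test for any of the 37 genes, as described further on.

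**Figure D1:**
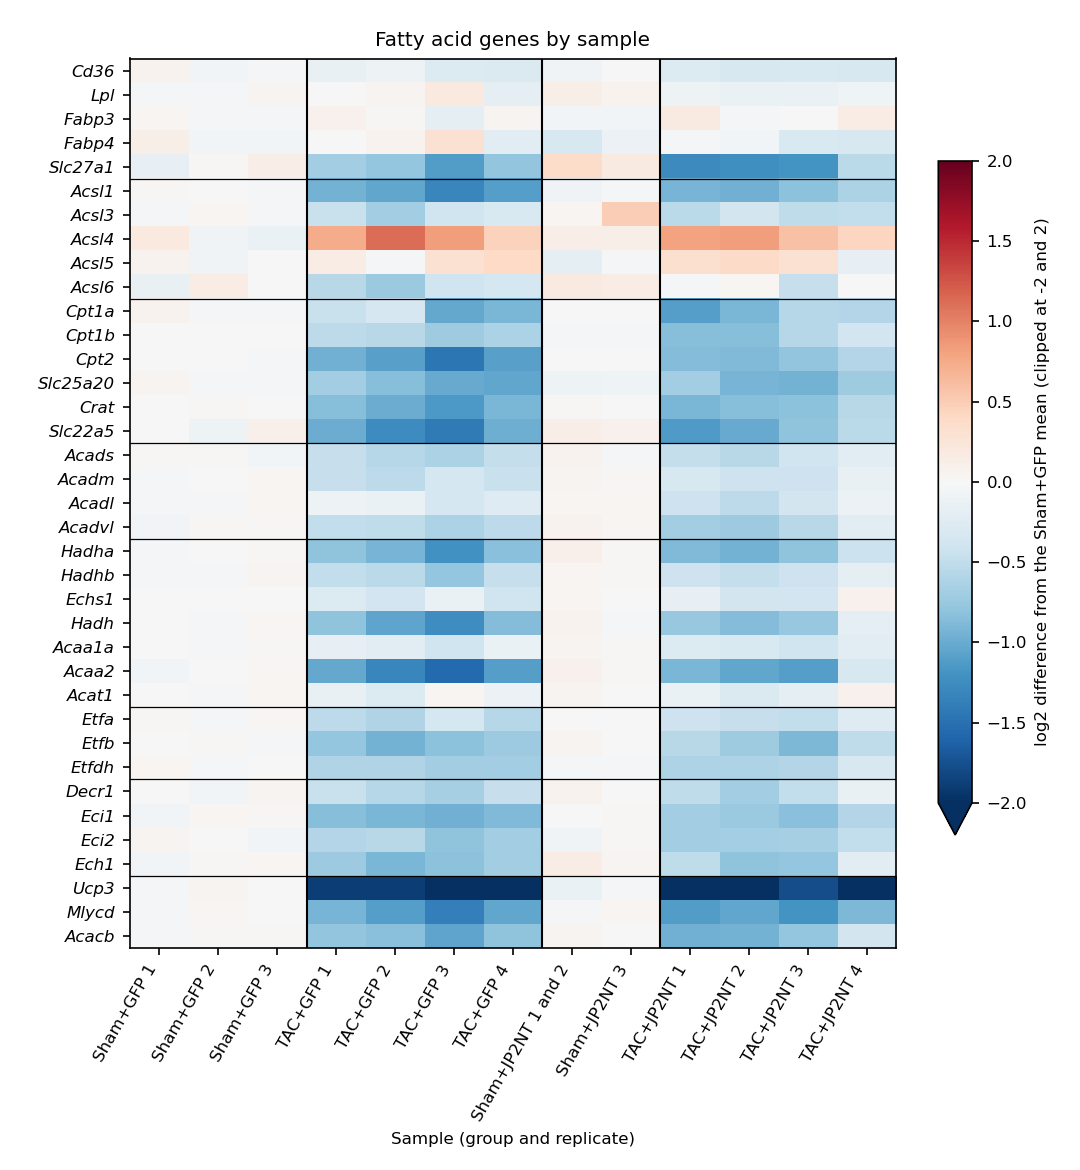
Heat map of the 37 genes (vertical axis, in pathway order, lines between steps) in the 13 samples counted (horizontal axis); colour is log2(value + 1) minus the Sham+GFP mean, clipped at -2 and 2. The TAC columns are mostly blue from the carnitine shuttle downward, Acsl4 is red in every TAC column, and the column of TAC+JP2NT replicate 4 is the palest of the 8 TAC columns, with a median of -0.32 over the genes.

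Sample by sample, the median difference of the 37 genes from the Sham+GFP mean on the log2 scale was -0.53, -0.61, -0.71 and -0.64 in TAC+GFP. It was -0.56, -0.69, -0.57 and -0.32 in TAC+JP2NT, where replicate 4 kept the smallest difference. The heat map of log2 differences by sample shows the same order of columns. The 8 cardiomyocyte markers summed to 406167 to 432935 in TAC+GFP, below every Sham+GFP library. They summed to 378643 to 462267 in TAC+JP2NT and to 460448 to 467879 in Sham+JP2NT. TAC+JP2NT replicate 4 held the highest sum of its group, 462267, which lay within the Sham+JP2NT range. Within TAC+GFP the sums did not follow the medians, since replicate 3, with the lowest median, had a sum of 429501 against 417042 in replicate 1. In TAC+GFP against Sham+GFP, Tnni3 and Ryr2 of the 8 markers were called lower and Myom2 higher, with a median log2 fold change of -0.13. Fibroblast markers rose in 4 of 6 and their sum went from 9028 to 9696 in Sham+GFP to 11585 to 16132 in TAC+GFP. Pericyte markers fell in 3 of 5, macrophage markers in 1 of 6 (Csf1r), and brown adipocyte markers in 0 of 2. Over all genes tested in this comparison, 24.8% were called lower and 23.3% higher. The counts of cardiomyocyte and macrophage markers called lower were thus about that share or below it. What part these marker differences have in the values of the fatty acid genes was not tested.

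Of the 5 genes of uptake and cytosolic binding, 2 were called lower and 3 did not pass the test, under either vector. Over all genes tested, 48.1% were called under GFP and 31.9% under JP2NT, so this count alone does not set the step apart. Cd36 (chr5:17781690-17888801, minus strand), the main fatty acid translocase of the cardiomyocyte membrane, had values of 26764, 24663 and 25123 in Sham+GFP and of 22892, 23879, 21102 and 20982 in TAC+GFP. The groups did not overlap, but the fall was the smallest of those called, by 0.20 on the log2 scale (SE 0.069, limma Benjamini-Hochberg adjusted p = 0.0255). With JP2NT it was at 24343 and 25473 in sham and at 21121, 20333, 20567 and 20455 in TAC samples, a log2 change of -0.27 (SE 0.078, adjusted p = 0.0163, limma), again without overlap. The call under GFP was lost without the low-value filter and without Sham+GFP replicate 1 or 3 or TAC+GFP replicate 3 or 4, where the adjusted p reached 0.115.

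Slc27a1, which encodes the fatty acid transport protein FATP1, fell furthest among the uptake genes. Its mean was 1942 ± 193 (SD, n = 3) in Sham+GFP and 1086 ± 132 (n = 4) in TAC+GFP, 1.79-fold lower. Under JP2NT it went from 2353 ± 221 (n = 2) to 948 ± 251 (n = 4), 2.53-fold lower. Lpl, lipoprotein lipase, averaged 61745 ± 1883 in Sham+GFP and 62475 ± 6666 in TAC+GFP, a log2 difference of 0.011 with a 95% interval of -0.18 to 0.20. Fabp3, the heart form of the binding protein, averaged 53812 ± 1402 and 53506 ± 4525 (log2 -0.012, interval -0.20 to 0.18). For Fabp4, the binding protein of adipocytes and capillary endothelium, the means were 6071 ± 460.4 and 6256 ± 941 (log2 0.034, interval -0.21 to 0.28). These 3 genes overlapped between sham and TAC under GFP, and none passed under JP2NT (log2 -0.22, 0.13 and 0.049, respectively). Under JP2NT the groups of Lpl (lower in TAC) and of Fabp3 (higher in TAC) did not overlap, and those of Fabp4 did. White adipocyte markers, which include genes of fat around the heart, summed to 75.5 to 84.2 in Sham+GFP and 70.2 to 315 in TAC+GFP, with 0 of 5 tested called. Endothelial markers fell in 4 of 8 and rose in 1, Egfl7, in TAC+GFP against Sham+GFP. Over all genes tested there, 24.8% were called lower and 23.3% higher. What part either marker list has in the values of Lpl and Fabp4 was not tested.

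Activation was the one step with a gene that rose. Acsl1 (chr8:46471037-46536051 in GRCm38, plus strand), the main long-chain acyl-CoA synthetase of the heart, was at 19736, 19267 and 19163 in Sham+GFP against 10083, 9422, 7835 and 9003 in TAC+GFP. All 4 TAC values lay far below all 3 sham values, 2.14-fold lower on average (log2 -1.10, SE 0.092, limma Benjamini-Hochberg adjusted p = 7.42e-07). With JP2NT the sham samples read 18444 and 18810.4 and the TAC samples 10125, 9909, 10962 and 12546, 1.72-fold lower (limma adjusted p = 0.000154). The 2 groups were again separate, with TAC+JP2NT replicate 4 nearest to sham.

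Acsl4 (chrX:142317993-142390535, minus strand), a synthetase that prefers arachidonate and other polyunsaturated fatty acids, moved the other way. Its values were 113, 94.0 and 89.5 in Sham+GFP and 165, 214, 177 and 136 in TAC+GFP, so every overloaded sample was above every sham sample. The rise was 1.73-fold (log2 0.79, SE 0.15, limma Benjamini-Hochberg adjusted p = 0.000574). Under JP2NT the values were 108 and 106 in sham and 172, 176, 148 and 133 in TAC, a 1.46-fold rise (limma adjusted p = 0.0241). That second call was lost without Sham+JP2NT replicate 3 or TAC+JP2NT replicate 1 or 2. Relative to the value of Acsl1 in the same sample, the value of Acsl4 was 0.467 to 0.583% in sham samples and 1.06 to 2.27% in TAC samples. Acsl1 was lower and Acsl4 higher in every TAC sample, so this ratio could not overlap and is a description only. The share of Acsl1 among the 5 isoforms per principal transcript length was 92.59 to 96.08% in TAC samples, below its range in sham samples. Per length of all exonic bases it was 84.34 to 91.57% in TAC samples, also below the sham range.

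Acsl3, Acsl5 and Acsl6 were low in all groups. Acsl3 fell from 62.7 ± 1.36 to 45.4 ± 5.17 under GFP and from 76.6 ± 17.2 to 44.7 ± 2.31 under JP2NT, and both falls passed the test. Acsl6 fell from 148 ± 15.7 to 104 ± 12.6 under GFP, while its means of 166 ± 1.38 and 138 ± 20.8 under JP2NT did not pass (log2 -0.28, 95% interval -0.61 to 0.058). Acsl5, a synthetase of mitochondrial and endoplasmic membranes, had means of 329 ± 16.9 and 382 ± 48.3 under GFP (log2 0.21, not called). Its JP2NT means of 304 ± 24.9 and 385 ± 61.8 differed by 0.33 on the log2 scale, which was not called either. Without TAC+JP2NT replicate 4 the latter difference was 0.45 and passed (limma Benjamini-Hochberg adjusted p = 0.00645).

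**Figure D2:**
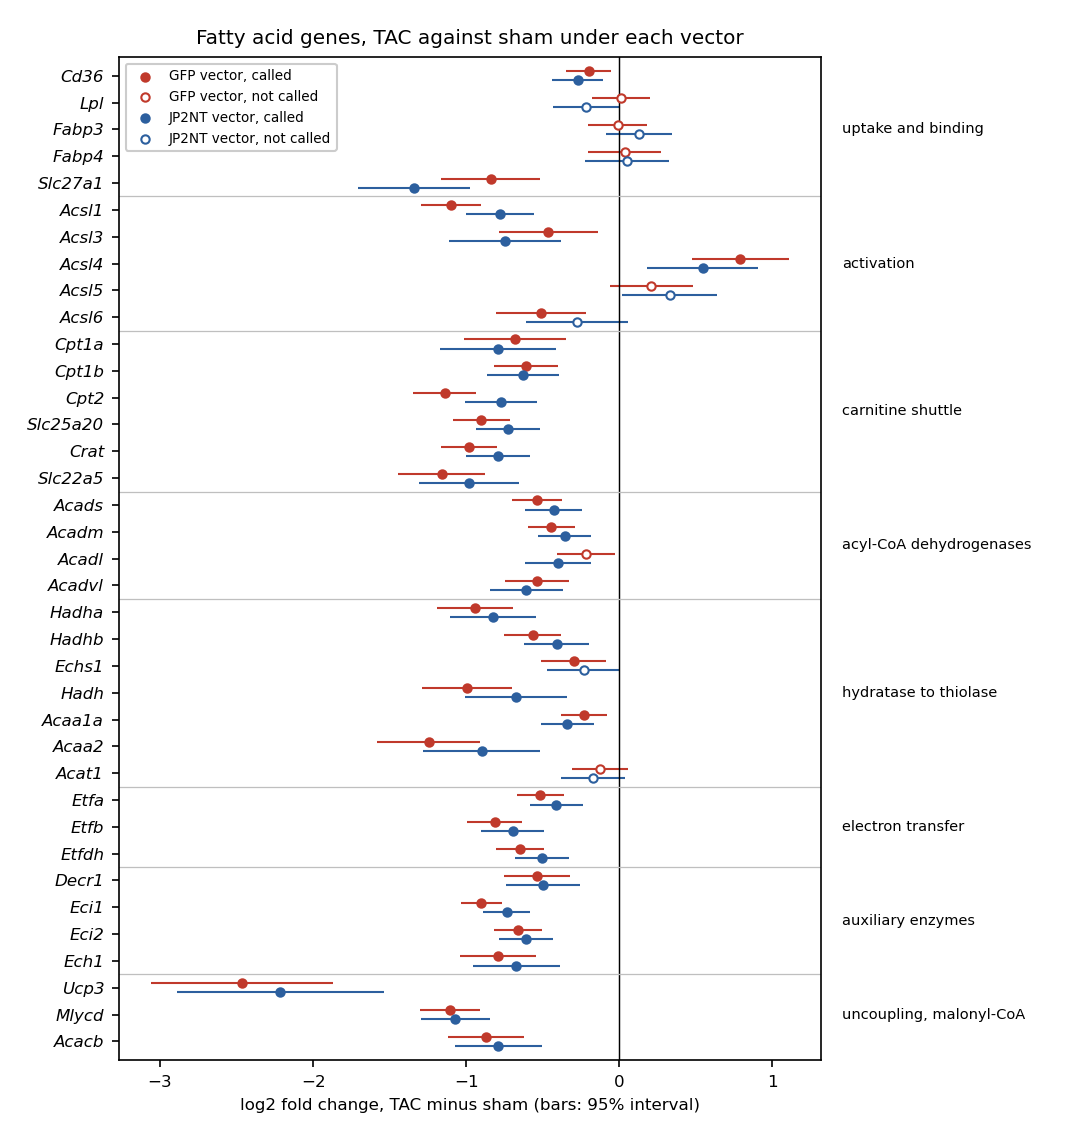
Log2 fold change of each of the 37 genes after overload (horizontal axis; points, with 95% intervals from limma as bars) under the GFP vector (red) and the JP2NT vector (blue), with filled points for called genes. Most points lie left of 0, Ucp3 is farthest left at -2.46 and -2.21, and Acsl4 is the one called gene to the right, at 0.79 and 0.54.

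All 6 carnitine shuttle genes fell under both vectors, with medians of -0.94 (GFP) and -0.78 (JP2NT) on the log2 scale. Cpt1b (chr15:89416405-89425863, minus strand), which makes acylcarnitine at the outer mitochondrial membrane and is the step that malonyl-CoA inhibits, read 13178, 13067 and 13226 in Sham+GFP and 9149.6, 8948, 8027 and 8462 in TAC+GFP. It was 1.52-fold lower in TAC+GFP without overlap (log2 -0.61, SE 0.098, limma Benjamini-Hochberg adjusted p = 0.000165). With JP2NT the sham values 12747 and 12928 stood above the TAC values 7323, 7259, 8856 and 10049, a 1.55-fold difference. In the annotation, 81.4% of the exonic bases of Cpt1b are shared with a readthrough gene on the same strand, Gm44502, so the authors' counting could have split its reads.

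Cpt1a, the form that dominates in liver, was far below Cpt1b per length and fell as well. Its values were 1148, 1065 and 1080.5 in Sham+GFP and 804, 867, 538 and 583 in TAC+GFP (1.60-fold lower, limma Benjamini-Hochberg adjusted p = 0.00237). Under JP2NT they were 1096 and 1099 in sham and 513, 581, 738 and 730.0 in TAC (1.73-fold lower, limma adjusted p = 0.00417). Neither pair of groups overlapped, and the value of Cpt1a as a percentage of that of Cpt1b overlapped between sham (8.15 to 8.71%) and TAC (6.71 to 9.68%).

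Cpt2 (chr4:107903981-107923610, minus strand), which returns the acyl group to CoA at the inner membrane, had a larger log2 change under GFP than either form of Cpt1. Sham+GFP values of 4726, 4731 and 4624 stood against TAC+GFP values of 2401, 2219, 1732 and 2222, 2.21-fold lower (log2 -1.14, SE 0.097, limma Benjamini-Hochberg adjusted p = 8.38e-07). Under JP2NT the sham values were 4653 and 4665 and the TAC values 2584, 2535, 2704 and 3111, 1.71-fold lower, against 1.73-fold for Cpt1a. The 3 Sham+GFP replicates were tight, and TAC+GFP replicate 3 was the lowest sample of all. The differences in fall between Cpt2 and the 2 forms of Cpt1 were not tested.

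Slc22a5, the plasma membrane carnitine transporter OCTN2, had the largest fall of the shuttle under both vectors. It went from 572, 533 and 619 in Sham+GFP to 288, 239.5, 215 and 289.7 in TAC+GFP, 2.24-fold lower (limma Benjamini-Hochberg adjusted p = 1.03e-05). With JP2NT it went from 627 and 610.1 to 261, 284, 327 and 395, 1.97-fold lower (limma adjusted p = 0.000391). Every TAC value of the gene was below every sham value. Crat, carnitine acetyltransferase, which buffers acetyl-CoA as acetylcarnitine, had 10747, 10996 and 10783 in Sham+GFP and 5977, 5444, 4872 and 5727 in TAC+GFP (1.97-fold lower, limma adjusted p = 1.11e-06). Its JP2NT values were 10999.8 and 10823 in sham and 5777, 6031, 6134 and 7411 in TAC (1.73-fold lower), again with separate groups. Slc25a20, the carnitine-acylcarnitine translocase of the inner membrane, fell from 3931 ± 130.4 (SD, n = 3) to 2114 ± 234 (n = 4) under GFP. Under JP2NT it fell from 3685 ± 36.0 (n = 2) to 2234 ± 209 (n = 4).

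The 4 acyl-CoA dehydrogenases, which open each cycle for chains of different length, had smaller log2 changes than the carnitine shuttle, with medians of -0.49 (GFP) and -0.42 (JP2NT) against -0.94 and -0.78. Acadm, the medium-chain enzyme, was at 15264, 15364 and 15860.4 in Sham+GFP and at 11247, 10775, 12174 and 11417 in TAC+GFP. It was 1.36-fold lower with no overlap (log2 -0.44, SE 0.072, limma Benjamini-Hochberg adjusted p = 0.00018). Under JP2NT the values were 16061 and 15722 in sham and 12474, 11670.2, 11679 and 13937 in TAC, 1.28-fold lower and also separate. Acadvl, the very-long-chain enzyme bound to the inner membrane, fell from 15106 ± 508 to 10389 ± 467 under GFP and from 15715 ± 236 to 10412 ± 1729 under JP2NT. Dvl2, on the opposite strand, overlaps 42.9% of the exonic bases of Acadvl, and whether the authors' counting used strand is not given in the sources used here. Acads, the short-chain enzyme, fell from 3940.1 ± 125 to 2719 ± 155 and from 3986 ± 181 to 2968 ± 305, respectively. Acadl, the long-chain enzyme, averaged 14462 ± 295 and 12476 ± 986 under GFP, which missed the threshold (log2 -0.22, limma Benjamini-Hochberg adjusted p = 0.056) although the groups did not overlap. Under JP2NT it fell from 14899 ± 7.68 to 11341 ± 1376 (log2 -0.40, adjusted p = 0.00794, limma), and the difference between the vectors in its response was -0.18 (adjusted p = 0.646).

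Of the 7 genes of the hydratase, hydroxyacyl-CoA dehydrogenase and thiolase steps, 6 fell under GFP and 5 under JP2NT. Hadha, the trifunctional subunit with the hydratase and dehydrogenase activities, read 22981, 23648 and 24032 in Sham+GFP and 13466, 12418, 10196 and 13219.7 in TAC+GFP. The fall was 1.92-fold without overlap (log2 -0.94, SE 0.12, limma Benjamini-Hochberg adjusted p = 1.92e-05). With JP2NT it read 25350.3 and 23915 in sham and 12805, 12258, 13503 and 17575 in TAC, 1.77-fold lower (limma adjusted p = 0.000498).

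Hadhb, the subunit with the thiolase activity, had a smaller log2 change: it fell from 28593 ± 871 (SD, n = 3) to 19368 ± 1759 (n = 4) under GFP (log2 -0.57) and from 29268 ± 324 (n = 2) to 22096 ± 1967 (n = 4) under JP2NT (log2 -0.41). The ratio of the value of Hadha to that of Hadhb in the same sample was 0.812 to 0.859 in sham samples and 0.595 to 0.703 in TAC samples. All 8 TAC samples thus lay below all 5 sham samples in this ratio, including TAC+JP2NT replicate 4, the highest of the TAC samples. The ratio is a description, with no test, of 2 genes that share the printed stretch between their starts. For the flavoprotein subunits, the ratio of the values of Etfb to Etfa was 1.18 to 1.27 in sham samples and 0.884 to 1.10 in TAC samples, also without overlap.

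Hadh, the soluble short-chain hydroxyacyl-CoA dehydrogenase, was at 10590.0, 10558 and 10948 in Sham+GFP and 6139.6, 5137, 4505 and 5867 in TAC+GFP, 1.99-fold lower (limma Benjamini-Hochberg adjusted p = 4.68e-05). Under JP2NT the sham values were 11282 and 10573 and the TAC values 6316, 5878, 6292 and 9409.5, 1.59-fold lower (limma adjusted p = 0.00516). The groups were separate, although TAC+JP2NT replicate 4 lay far above the other 3. Acaa2, the mitochondrial 3-ketoacyl-CoA thiolase, had the largest fall of the oxidation cycle under GFP: 16296, 16939 and 17348 in Sham+GFP and 8283, 6809, 5748 and 7866 in TAC+GFP, 2.37-fold lower (log2 -1.25, SE 0.16, limma adjusted p = 2.21e-05). Under JP2NT it had 17977 and 17066 in sham and 8968, 8227, 7828 and 13480.3 in TAC, 1.86-fold lower (limma adjusted p = 0.00202). Without TAC+JP2NT replicate 4 that log2 change was -1.07 in place of -0.90.

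Smaller changes were seen in the other 3 genes of these steps. Echs1, the short-chain enoyl-CoA hydratase, fell from 5684 ± 46.5 to 4639 ± 404 under GFP, and under JP2NT its means of 5788 ± 77.9 and 4967 ± 778 did not pass the test (log2 -0.23). Without TAC+JP2NT replicate 4 the change under JP2NT was -0.33 and passed (limma Benjamini-Hochberg adjusted p = 0.00834). Acaa1a, a peroxisomal thiolase, fell from 877 ± 17.8 to 749 ± 60.2 and, under JP2NT, from 900.2 ± 8.86 to 712 ± 33.4. It has a close paralog, Acaa1b, whose level was too low to be tested. Acat1, the acetoacetyl-CoA thiolase of ketone body use, averaged 7555 ± 175 and 6942 ± 619 under GFP (log2 -0.13, 95% interval -0.31 to 0.059). Under JP2NT it averaged 7753 ± 167 and 6914 ± 789 (log2 -0.17, interval -0.38 to 0.038), and its groups overlapped under both vectors. Without TAC+JP2NT replicate 4 the latter change was -0.25 and passed (limma Benjamini-Hochberg adjusted p = 0.0303).

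**Figure D3:**
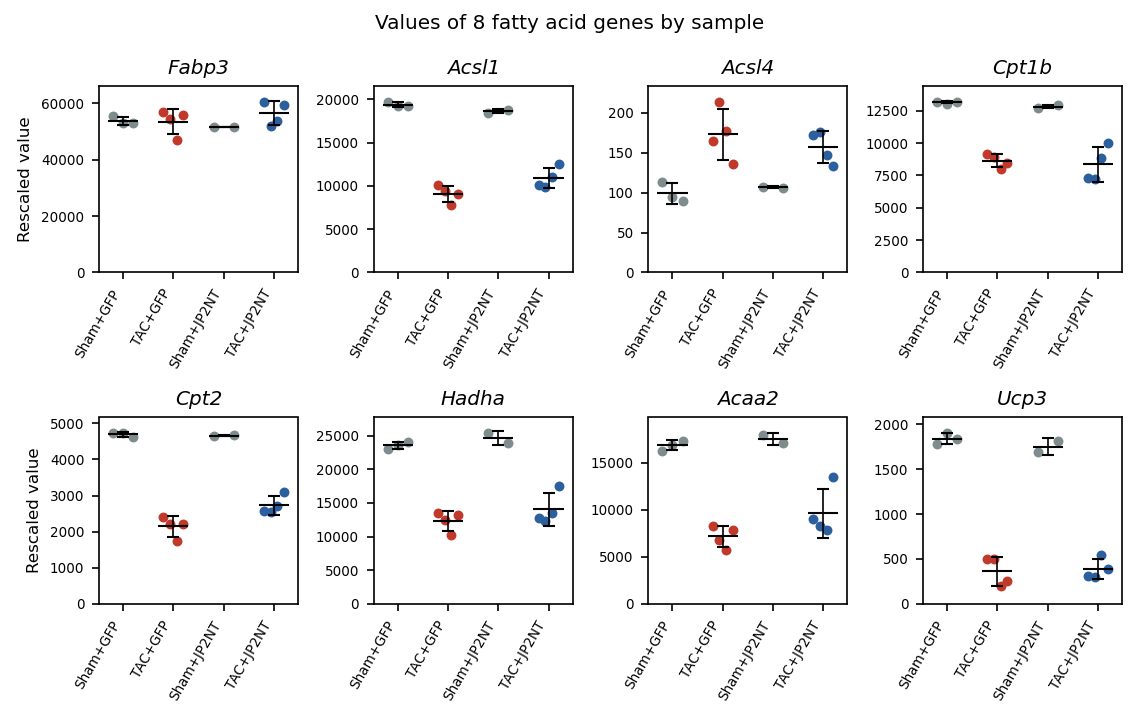
Rescaled values of 8 of the genes in each sample counted (points; vertical axes start at 0) by group (horizontal axis), with horizontal lines at the group mean and bars of 1 SD (n = 3, 4, 2 and 4 from left to right). Fabp3 overlaps between sham and TAC under GFP and does not under JP2NT, Acsl4 is higher in every TAC sample, and the other 6 are lower in every TAC sample, with TAC+JP2NT replicate 4 the highest TAC point of Acsl1, Cpt1b, Cpt2, Hadha and Acaa2.

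All 3 electron transfer genes fell under both vectors, with medians of -0.65 and -0.51. Etfa and Etfb, the subunits of the flavoprotein that takes electrons from the acyl-CoA dehydrogenases, fell by 0.52 and 0.81 on the log2 scale under GFP and by 0.41 and 0.70 under JP2NT. In Sham+GFP and TAC+GFP the means were 7630.0 ± 179.9 and 5347 ± 417 for Etfa. For Etfb they were 9239.6 ± 146 and 5262 ± 327. A gene on the same strand, Gm45233, shares 53.0% of the exonic bases of Etfb. Etfdh, which hands the electrons on to ubiquinone, fell from 10286 ± 242 to 6570.4 ± 232 under GFP and from 10067 ± 30.9 to 7113 ± 747 under JP2NT.

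The auxiliary enzymes, which move or reduce the double bonds of unsaturated acyl chains, all fell as well, 4 of 4 under both vectors. Eci1, the main mitochondrial enoyl-CoA isomerase, was at 2983, 3176 and 3159.7 in Sham+GFP and 1729, 1649, 1593 and 1678 in TAC+GFP. Its TAC+GFP replicates were tight, and the fall of 1.87-fold had the lowest adjusted p of the 37 genes (log2 -0.90, SE 0.063, limma Benjamini-Hochberg adjusted p = 1.82e-07). With JP2NT it was at 3131 and 3166 in sham and 1914, 1846, 1745 and 2068 in TAC, 1.67-fold lower and without overlap. Ech1, a dienoyl-CoA isomerase and the gene with the second rank per kilobase of the principal transcript, fell from 21364 ± 740.0 to 12356 ± 818 under GFP and from 22879 ± 1009.9 to 14548 ± 2933 under JP2NT. Eci2, an isomerase found in mitochondria and peroxisomes, went from 2414 ± 95.3 to 1529 ± 117 and, under JP2NT, from 2373 ± 97.7 to 1556 ± 107. Decr1, the dienoyl-CoA reductase, went from 6783 ± 258 to 4687 ± 337 and from 6958 ± 180.5 to 4969 ± 817, respectively.

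Ucp3 (chr7:100472990-100486432, plus strand), an inner membrane carrier whose expression follows fatty acid supply, fell the furthest of the 37 genes. Its values were 1782, 1901 and 1837 in Sham+GFP and 499.6, 500.4, 194 and 251 in TAC+GFP. The fall was 5.52-fold (log2 -2.46, SE 0.28, limma Benjamini-Hochberg adjusted p = 8.86e-06). Under JP2NT, sham values of 1686 and 1816 stood against TAC values of 312, 304, 539 and 391, 4.64-fold lower (limma adjusted p = 0.000248). TAC values varied more than sham values: TAC+GFP replicates 1 and 2 were above replicates 3 and 4, and no TAC sample came close to a sham sample. Unlike most genes of the cycle, Ucp3 was not highest in TAC+JP2NT replicate 4 but in replicate 3.

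Both genes of the list that set malonyl-CoA, the inhibitor of Cpt1, fell. Mlycd, malonyl-CoA decarboxylase, which removes it, was at 2406, 2503 and 2429.9 in Sham+GFP and 1290.3, 1141, 952 and 1191 in TAC+GFP, 2.15-fold lower (limma Benjamini-Hochberg adjusted p = 7.47e-07). With JP2NT it was at 2416 and 2501 in sham and 1124, 1189.9, 1063 and 1316 in TAC, 2.10-fold lower (limma adjusted p = 2.24e-05), with separate groups under both vectors. Acacb, the acetyl-CoA carboxylase of the mitochondrial surface, which makes malonyl-CoA, fell from 7048 ± 184 to 3867 ± 315 under GFP and from 7196 ± 132 to 4224 ± 871 under JP2NT.

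Between the vectors in overloaded hearts (TAC+JP2NT against TAC+GFP), 1 of the 37 genes was called higher and none lower, at a background of 6.15% of all genes called, 2.75% higher and 3.4% lower. At an unadjusted p under 0.05 there were 9 of the 37 (24.3%), against 22.4% of all genes, which is about the background. As a description only, all 9 were higher with JP2NT: Acsl1, Acsl6, Cpt2, Crat, Slc22a5, Hadhb, Hadh, Acaa2 and Eci1. Each of these differences was smaller without TAC+JP2NT replicate 4. Crat then stood at 0.12 in place of 0.20, Hadhb at 0.13 in place of 0.19, and Eci1 at 0.14 in place of 0.19. The median log2 difference was 0.090 over the 37 genes and 0.00059 over all genes, and 25 of the 37 differences were above 0, against 50.2% of all genes. The called gene was Cpt2, whose values are given above: all 4 TAC+JP2NT samples were above all 4 TAC+GFP samples, by 0.36 on the log2 scale (95% interval 0.17 to 0.55, limma Benjamini-Hochberg adjusted p = 0.0316). Cpt2 was still below its sham level in every TAC+JP2NT sample. Groups also did not overlap in Eci1 (log2 0.19, limma adjusted p = 0.0733), so 2 of the 37 genes were without overlap, against 10.7% of all genes.

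**Figure D4:**
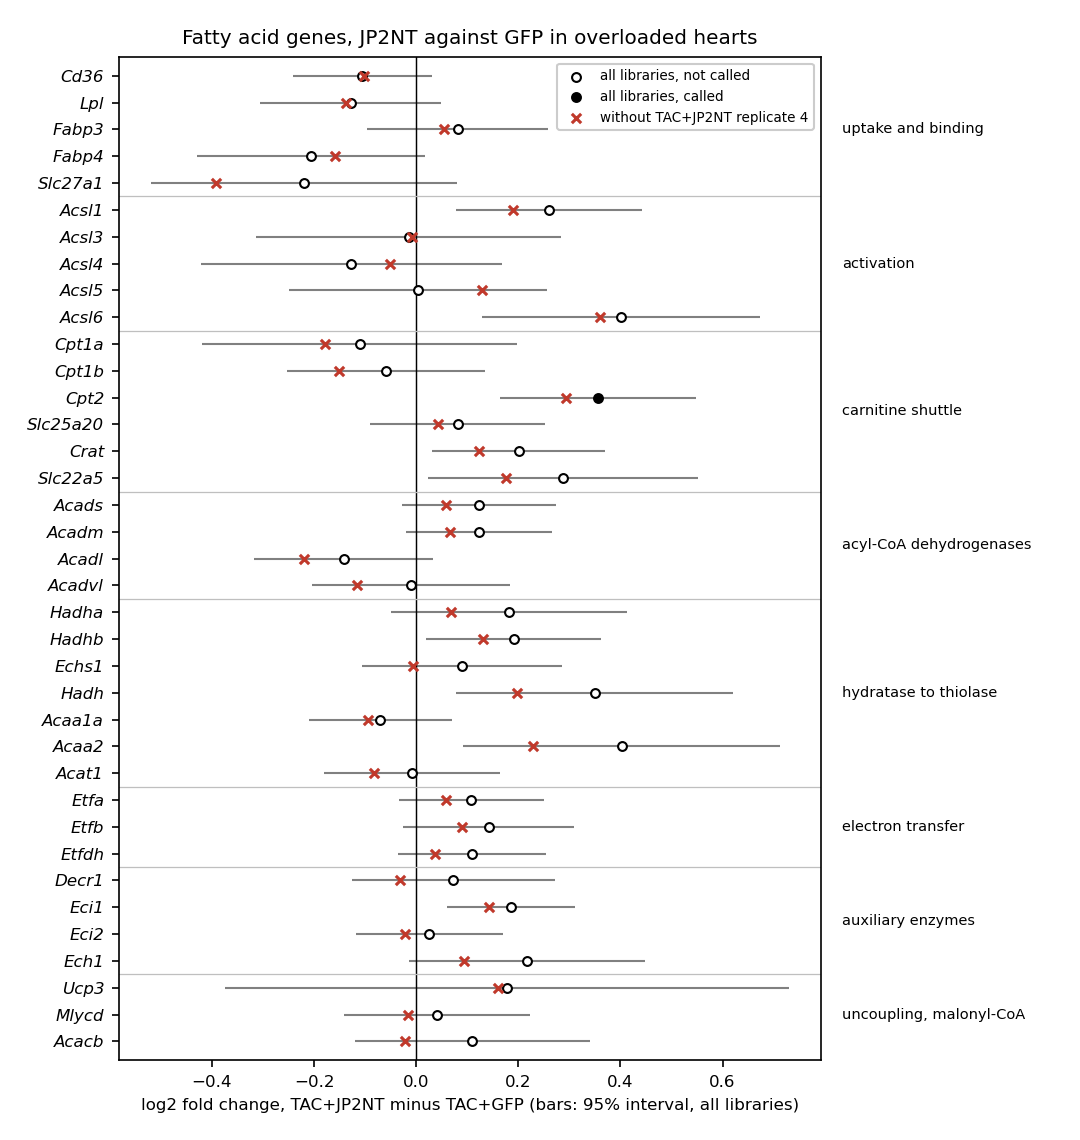
Log2 difference of each of the 37 genes between TAC+JP2NT and TAC+GFP (horizontal axis; circles with 95% intervals from limma as bars, filled where called) and the same difference without TAC+JP2NT replicate 4 (red crosses). Cpt2 is the one filled circle, at 0.36, and most crosses lie to the left of their circles.

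The differences between the vectors rested in part on TAC+JP2NT replicate 4. Without it the median over the 37 genes was 0.043, 20 of 37 were above 0, and none was called higher, while 3 were called higher without TAC+JP2NT replicate 3. Without TAC+JP2NT replicate 4, Cpt2 stood at 0.29 (limma Benjamini-Hochberg adjusted p = 0.0624). Its call was also lost without TAC+GFP replicate 2, with the values as deposited and in a fit restricted to the compared groups. Slc27a1 was called lower with JP2NT when TAC+JP2NT replicate 4 was left out, at -0.39 (adjusted p = 0.0324, limma), in place of -0.22 with all libraries. The same replicate held the highest cardiomyocyte marker sum of the TAC hearts, 462267, and its white adipocyte markers summed to 507. White adipocyte sums in TAC+JP2NT were otherwise 28.3, 681 and 50.5, so replicate 2 was higher still. Of the marker lists, 1 of 8 cardiomyocyte genes (Myom2) and 1 of 8 endothelial genes (Egfl7) were called lower in TAC+JP2NT against TAC+GFP. In the same comparison 2 of 5 pericyte genes (Abcc9 and Notch3) were called higher. Over all genes tested, 3.4% were called lower and 2.75% higher, and a single call in a short list says little about a cell type. What part these marker differences have in the values was not tested. The plot of vector differences with and without that replicate shows the shift gene by gene.

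Larger differences between the vectors that did not pass were those of Acaa2 (0.40, 95% interval 0.092 to 0.71), Acsl6 (0.40, 0.13 to 0.67), Hadh (0.35, 0.078 to 0.62), Slc22a5 (0.29, 0.023 to 0.55) and Acsl1 (0.26, 0.079 to 0.44). The limma Benjamini-Hochberg adjusted p of these 5 genes lay between 0.0765 and 0.182. Without TAC+JP2NT replicate 4 the difference was 0.23 for Acaa2, 0.20 for Hadh and 0.18 for Slc22a5, in each case more than 1.5 times smaller. It was 0.36 for Acsl6 and 0.19 for Acsl1. On the other side were Slc27a1 (-0.22, -0.52 to 0.079), Fabp4 (-0.21, -0.43 to 0.017) and Acadl (-0.14, -0.32 to 0.033). For Cpt1b the difference was -0.058 with an interval of -0.25 to 0.14, and for Ucp3 it was 0.18 with the widest interval of the 37, -0.37 to 0.73. Without that replicate Fabp4 stood at -0.16, Acadl at -0.22, Cpt1b at -0.15 and Ucp3 at 0.16.

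In sham hearts the vectors did not differ in any of the 37 genes by the test (Sham+JP2NT against Sham+GFP), and 0% of all genes were called. At an unadjusted p under 0.05 there were 0 of the 37 and 581 of all genes. The median was 0.026, and differences ran from -0.22 (Fabp4, 95% interval -0.51 to 0.068) to 0.28 (Slc27a1, -0.11 to 0.67). With 2 samples in Sham+JP2NT, values did not overlap in 13 of 37 genes, against 30.2% of all genes.

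Whether overload acted differently under the 2 vectors was asked with the interaction of surgery and vector. None of the 37 genes passed, at a background of 0.0757% of all genes called, and 3 of 37 (8.11%) had an unadjusted p under 0.05, against 11.4% of all genes, so the 3 are described by their values alone. For Slc27a1 the fall was larger under JP2NT (difference of changes -0.50, SE 0.23, limma Benjamini-Hochberg adjusted p = 0.431). For Acsl1 the change was nearer to 0 under JP2NT (0.32, SE 0.14, adjusted p = 0.408, limma), as it was for Cpt2 (0.37, SE 0.15, adjusted p = 0.354). For Ucp3, the gene with the largest fall, the difference of changes was 0.25 with an interval of -0.65 to 1.15. Over the 37 genes the median was 0.11 and 26 were above 0, against a median of 0.014 and 52.4% above 0 over all genes.

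Neighbouring pathways were read from lists named for their function. Their counts stand against the share of all genes called lower, 24.8% under GFP and 15.8% under JP2NT, and called higher, 23.3% and 16.1%. Of the other uptake and lipoprotein genes, 4 of 8 tested fell and 1 rose in TAC+GFP against Sham+GFP. Gpihbp1, the capillary anchor of lipoprotein lipase, rose from 1083 ± 38.4 to 2238 ± 525 (log2 1.01, limma Benjamini-Hochberg adjusted p = 0.000382), while the lipase itself did not pass. Angptl4, an inhibitor of the lipase, fell from 820.5 ± 181 to 263 ± 172 (log2 -1.92, adjusted p = 0.00322, limma), with wide spread within both groups.

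Peroxisomal oxidation genes fell in 9 of 11 tested under both vectors, with medians of -0.62 (GFP) and -0.48 (JP2NT). Ehhadh, the bifunctional enzyme of that pathway, fell from 415 ± 48.5 to 124 ± 18.2 under GFP (log2 -1.74, limma Benjamini-Hochberg adjusted p = 9.56e-06). Other mitochondrial acyl-CoA enzymes fell in 11 of 15 (median -0.42) under GFP and 8 of 15 under JP2NT (median -0.39), and none rose. Acot2, a matrix thioesterase that releases free fatty acid from acyl-CoA, fell from 1159 ± 35.9 to 449.5 ± 115 (log2 -1.40). Triglyceride storage and lipolysis genes fell in 10 of 15 under GFP (median -0.53) and 9 of 15 under JP2NT (median -0.50). Dgat2, which makes triglyceride, fell from 6380.1 ± 453 to 2845 ± 200.1 (log2 -1.16), and Lipe, hormone-sensitive lipase, from 1131 ± 84.0 to 543 ± 67.7 (log2 -1.06). Fatty acid synthesis genes fell in 6 of 12 under GFP (median -0.23) and in 3 of 12 under JP2NT, where Elovl1 rose (median -0.15). Between the vectors in overloaded hearts, 1 gene of these 5 lists was called, against 6.15% of all genes. It was Lpin1, a phosphatidate phosphatase and coactivator of fatty acid oxidation genes. Lpin1 was at 1956 ± 124 in TAC+GFP and 2556 ± 201 in TAC+JP2NT (log2 0.38, limma Benjamini-Hochberg adjusted p = 0.00981). Its difference without TAC+JP2NT replicate 4 is not given here.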

How the data were processed

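The 14 libraries were stranded, paired-end and made from polyadenylated RNA. Per the submitters' processing notes the tools were FastQC 1.0.0, STAR 2.6.1a and Salmon with build mm10; annotation and scaling are not named there. The deposited table holds a signal: gene counts that the authors had scaled. Divided by the value of 1 read, 1.63% (GFP libraries) and 1.85% (JP2NT libraries) of values lie within 0.001 of a whole number, so whole reads could not be recovered and no count model was used. Depth was estimated from the value of 1 read and limits the precision of low genes.

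Values were rescaled jointly by unweighted trimmed means of M-values (30% of ratios and 5% of mean levels trimmed), 1 was added and log2 taken. The low-value filter (10 or more in 3 or more samples) left 13212 genes; 26 gene names had been turned into dates and 2 were repeated. Limma-trend (limma 3.58.1, R 4.3.3) was fitted with group means and a shared spread (9 residual and 5.71 prior degrees of freedom), two-sided, with Benjamini-Hochberg adjustment over all genes tested within a comparison. Fold changes are on the log2(value + 1) scale and understate the change of low genes. The code was tested on simulated data. Sham+JP2NT replicates 1 and 2 were averaged. The labels do not say whether libraries come from separate mice, so p-values measure the spread between these samples, which may be technical. Median SDs of the 37 genes within groups on the log2 scale were 0.0436 in Sham+GFP, 0.128 in TAC+GFP, and with JP2NT 0.0265 in sham and 0.160 in TAC, so 1 shared spread is too large for sham and too small for TAC samples.

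The 37 genes, the pathway lists and the marker lists (cardiomyocyte, endothelial, white and brown adipocyte, fibroblast, macrophage, pericyte, skeletal muscle) were chosen with earlier results of these data known. Values in every sample are printed for Cd36, Acsl1, Cpt1a, Cpt1b, Cpt2, Acadm and Hadha, for the 10 genes with the largest called change in TAC+GFP against Sham+GFP, for any that rose there and for any called between the vectors or in the interaction. Other genes are given as mean ± SD. Gene models came from GENCODE M21 and promoters from RefSeq. The 24 alternative settings covered filter, pseudocount, scaling, spread, samples in the fit, replicate block and each library left out; leaving the 37 genes out of the scaling, and leaving out TAC+JP2NT replicate 4 with TAC+GFP replicate 3, were chosen after seeing the data.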

Additional observations from a re-analysis of the deposited data

Results flagged for a closer look

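In 4 of 74 groups of 4 samples checked over the 37 genes, 1 sample lay far from the other 3 by Dixon's 95% limit. Chance marks about 1 in 20 groups, so the number of flags was about the share that chance gives. All 4 flagged samples were TAC+JP2NT replicate 4. Slc27a1, the transport protein FATP1, stood at 1325 there, against 802 to 841 in the other 3 replicates. For Hadh, the short-chain hydroxyacyl-CoA dehydrogenase, the value was 9409.5 against 5878 to 6316. Etfdh, which passes electrons to ubiquinone, was at 8225 against 6679.7 to 6864. Eci2, an enoyl-CoA isomerase, was at 1716 against 1485 to 1517. In each of the 4 genes the replicate was nearer to the sham level than the other 3 were. All 4 genes fell after overload, so a high TAC sample lies nearer to sham by necessity, and this is no separate result.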

How the results depend on the processing

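In TAC+GFP against Sham+GFP the counts of genes called over all genes and of fatty acid genes lower (30) and higher (1) kept within 1.5 times in all 24 settings; leaving out a library gave 5197 to 6696 genes, 27 to 31 fatty acid genes lower and 1 higher. All named genes but Cd36 kept their calls there. In TAC+JP2NT against Sham+JP2NT, leaving out a library gave 1868 (without Sham+JP2NT replicate 3) to 4981 genes called, 25 to 31 fatty acid genes lower and 0 to 2 higher; 2 were higher with 14 separate libraries, with a spread per group, with the replicate block and without TAC+JP2NT replicate 4 and TAC+GFP replicate 3 together. Cd36 lost its call in that comparison in 2 settings. In TAC+JP2NT against TAC+GFP, 812 genes were called; 1417 were called with values as deposited (226 higher and 1191 lower, so 15.9% higher in place of 44.7%), 412 with a spread per group, 181 with only the compared groups in the fit, and 268 (without TAC+GFP replicate 2) to 1066 when a library was left out. Fatty acid genes higher there were 1, but 0 as deposited, 0 with only the compared groups, 3 with the replicate block (Cpt2, Hadh and Acaa2), and 0 to 3 (3 without TAC+JP2NT replicate 3) when a library was left out; lower there were 0, but 0 to 1 when a library was left out and 2 without TAC+JP2NT replicate 4 and TAC+GFP replicate 3 together. Uncalled differences between the vectors in TAC hearts changed sign for Cpt1a (0.0029 without TAC+GFP replicate 2, with -0.23 to 0.0029 over all libraries left out in turn), Cpt1b (0.0016 and 0.0057 without TAC+JP2NT replicate 1 or 2, range -0.15 to 0.0057), Hadha (-0.020 without the named pair of libraries), Ucp3 (-0.080 without TAC+GFP replicate 3, range -0.080 to 0.37, and -0.098 without the pair) and Mlycd (-0.040 as deposited, -0.044 without TAC+GFP replicate 3, -0.016 without TAC+JP2NT replicate 4, range -0.044 to 0.10, and -0.10 without the pair). In Sham+JP2NT against Sham+GFP, 2 genes were called with only the compared groups in the fit and 0 to 1 when a library was left out, and 0 of the 37 in any setting. The interaction called 10 genes: 6 without the low-value filter, 127 with 14 separate libraries, 76 with a spread per group, 77 with the replicate block, 91 without the pair, and 0 (without Sham+JP2NT replicate 3) to 53 (without TAC+JP2NT replicate 3) when a library was left out; 1 of the 37 was called lower without the pair. Replicate numbers showed no sign of pairing the samples. Deviations correlated above 0.1 in 0 of 19 same-number pairs of libraries (-0.17 to 0.074), with -0.16 to 0.19 in pairs of different number. Of 14 libraries, 1 correlated best with its own number. With so few libraries per group, this check cannot settle whether the numbers stand for a shared batch. The cause of the shifts between settings was not tested. Depth limits the low genes Acsl3, Acsl4 and Acsl6.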

Other observations

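Genes of the neighbouring lipid lists were also called in TAC+JP2NT against Sham+JP2NT. Ehhadh, the peroxisomal bifunctional enzyme, fell from 360.2 ± 42.9 (SD, n = 2) to 121 ± 37.2 (n = 4), and the lipase inhibitor Angptl4 from 507 ± 182 to 123 ± 43.1. Gpihbp1 rose from 1032 ± 43.4 to 1579 ± 384 (limma Benjamini-Hochberg adjusted p = 0.0421). Srebf1, the regulator of fatty acid synthesis genes, fell under both vectors, from 926 ± 92.7 to 378 ± 12.2 and from 858 ± 33.5 to 367 ± 50.1. Fasn, fatty acid synthase, fell from 563 ± 24.7 to 292 ± 21.2 under GFP and from 631 ± 79.0 to 403 ± 115 under JP2NT. Acly, ATP citrate lyase of the same list, did not pass under either vector, with means of 533 ± 14.3 and 469 ± 43.9 under GFP. Plin5, which ties lipid droplets to mitochondria, fell from 2826 ± 106 to 1531 ± 168 and from 2589.9 ± 78.6 to 1483 ± 244, respectively. Acsm5, a medium-chain acyl-CoA synthetase, had the largest fall of the list of other mitochondrial acyl-CoA enzymes under GFP, from 112 ± 8.80 to 27.7 ± 7.85 (log2 -2.01). Lpin1 averaged 3003 ± 248 in Sham+JP2NT and 2556 ± 201 in TAC+JP2NT, which did not pass (limma Benjamini-Hochberg adjusted p = 0.0666). Under GFP it fell from 3540.4 ± 323 to 1956 ± 124. No gene of its list was called in the interaction of surgery and vector, so a different response under the vectors was not shown.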
